A study of Mus musculus with 20 samples.

Results

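The miR-29 family was followed in small RNA sequencing libraries from mouse liver. Every listed mature miRNA named miR-29a, miR-29b, miR-29b-1, miR-29b-2 or miR-29c was taken, from either arm of its hairpin. That gave 7 of the 1509 miRNAs listed in any library: mmu-miR-29a-3p, mmu-miR-29b-3p and mmu-miR-29c-3p, and the opposite strands mmu-miR-29a-5p, mmu-miR-29b-1-5p, mmu-miR-29b-2-5p and mmu-miR-29c-5p, written below without the mouse prefix mmu. None of the 7 was listed in a joined name with another miRNA. The study compared livers of 5 PiZ mice with livers of 5 wild-type (WT) mice, all on the C57BL/6 strain and all 6 weeks old. PiZ mice are transgenic for human alpha-1 antitrypsin in its Z form, a protease inhibitor that hepatocytes normally secrete, and still have their own mouse genes for it. The labels give no construct, line, zygosity or sex, and small RNA libraries do not measure the transgene's mRNA, so the labels alone give the genotype. The 2 technical runs of a library were summed, so each value below is that of a mouse.

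miR-29 miRNAs bind messenger RNAs of collagens, elastin, fibrillin and other proteins of the extracellular matrix and lower their output. In liver they are known as anti-fibrotic, because hepatic stellate cells that turn into matrix-producing myofibroblasts lose them in models of fibrosis. The Z form of alpha-1 antitrypsin collects in the endoplasmic reticulum of the liver cells that make it and is a known cause of liver injury with fibrosis. A hairpin yields a strand from each of its arms, and in this family the 3p strand is the one that mostly enters the silencing complex.

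The mature sequences show what the 3 main members share, and they are given from 5′ to 3′ with the seed, bases 2 to 8, in capitals. They are RefSeq sequences of the mouse build GRCm38.p6, in which all 7 members were matched by name.
miR-29a-3p: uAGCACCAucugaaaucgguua
miR-29b-3p: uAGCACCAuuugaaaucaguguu
miR-29c-3p: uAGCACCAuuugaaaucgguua
miR-29a-5p: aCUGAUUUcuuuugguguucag
The 3p strands have one seed, AGCACCA, the stretch that pairs with target messenger RNAs. Among the 1679 mature mouse miRNAs in the RefSeq table only these 3 carried it, a share of 0.179%. miR-29c-3p differed from miR-29a-3p by a single base, C10U, counting positions from the 5′ end. miR-29b-3p differed from miR-29a-3p by C10U, G18A, U21G and A22U and was 1 base longer. Its 3′ end, AGUGUU, is known from human cells as a signal that brings miR-29b into the nucleus. That end was found in 2 of the 1679 mature miRNAs (0.119%), miR-29b-3p and miR-92b-5p. The opposite strand miR-29a-5p has an unrelated seed, CUGAUUU.

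The family is encoded by 2 pairs of hairpins. Mir29a lies at chr6:31062660-31062747 and Mir29b-1 at chr6:31063023-31063093, both on the minus strand with 275 bases between them. Mir29b-2 lies at chr1:195037040-195037120 and Mir29c at chr1:195037547-195037634, both on the plus strand with 426 bases between them. In the annotation of the same build, Mir29b-1 fell in an exon of the long intergenic RNA Gm27019, and Mir29a overlapped no other gene. Mir29b-2 and Mir29c fell in exons of the non-coding transcript A330023F24Rik, and on the opposite strand in exons of Cd46, which encodes a complement regulator. Mir29b-1 and Mir29b-2 give the same miR-29b-3p, so its reads cannot be assigned to a locus. The deposited files hold no coordinates, and the authors' build was not given in the sources used here.
The Mir29a hairpin is printed with its 5p and 3p strands in capitals, since the balance of its arms is measured below.
Mir29a: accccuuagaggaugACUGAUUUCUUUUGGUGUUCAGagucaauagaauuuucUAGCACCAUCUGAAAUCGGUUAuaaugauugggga

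The libraries held 2433273 to 10780801 reads in PiZ mice and 1307857 to 10012788 reads in WT mice, and levels are given as CPM, the reads of a miRNA in each 1000000 of its library after the library size was scaled by TMM. On that scale 1 read stood for 0.0887 CPM in PiZ mouse 4 and for 0.715 CPM in WT mouse 1. The 2 runs of a library differed by little more than sampling noise (chi-square per degree of freedom 1.06 to 1.38 over mice). The files hold 2 lists of miRNAs, one of 1399 names (PiZ mice 1 and 2, WT mice 1 to 3) and one of 990 (PiZ mice 3 to 5, WT mice 4 and 5). The sources used here do not say what separates these sets of files, and their list was a term of the model. WT mice 1 and 3 stood apart from the other 8 mice. Theirs were the shallowest libraries, and miR-22-3p, the most abundant miRNA, took 59.7% and 52.2% of their reads, against 38.5% to 46.1% in the PiZ mice and 39.0% to 41.1% in the other WT mice. The results they touched most are therefore also given without these mice. The labelled tissue was checked on the hepatocyte miRNA miR-122-5p, which was abundant in both groups, with a mean of 9510 ± 1726 CPM in PiZ mice and 13010.0 ± 1132 CPM in WT mice (SD over 5 mice per group).

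The 3p strands were abundant and kept one order in 10 of 10 mice, with miR-29a-3p highest, miR-29b-3p next and miR-29c-3p lowest. By mean CPM they held ranks 24, 30 and 50 among the 880 miRNAs listed in every file. The CPM of neighbours in this order did not overlap over the mice: the lowest miR-29a-3p value of any mouse was 3187 CPM and the highest miR-29b-3p value was 2088 CPM, while the lowest miR-29b-3p value was 1659 CPM and the highest miR-29c-3p value was 1179 CPM. These are reads of strands of nearly equal length, and how well each sequence is captured in a library was not measured. The opposite strands were rare. miR-29a-5p ranked 220 and miR-29c-5p ranked 313, and the 5p strands of the miR-29b hairpins had 0 to 2 reads in a mouse.

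**Figure D1:**
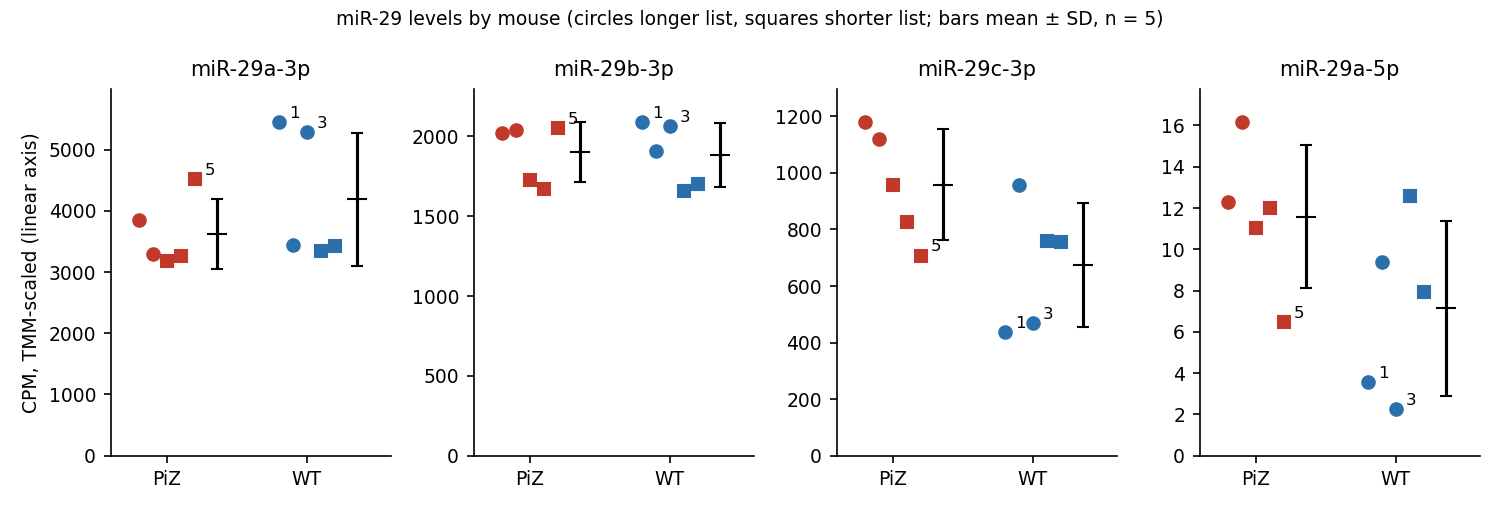
Level of 4 miR-29 strands in each mouse, in CPM with TMM-scaled library sizes on linear axes from 0, PiZ in red on the left and WT in blue on the right of each panel. Circles are files with the longer miRNA list and squares those with the shorter one, the bars are mean ± SD (n = 5), and the digits mark PiZ mouse 5 and WT mice 1 and 3, which are the 3 highest for miR-29a-3p and the 3 lowest for miR-29c-3p.

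The first comparison asked whether any member differed between PiZ and WT liver. None passed the test: 0 of the 5 members tested passed an adjusted p of 0.05 by the edgeR test, and 0 had an unadjusted p under 0.05. DESeq2 and limma-voom also called 0 of the 5. Over all 336 miRNAs tested, edgeR called 31, or 9.23%, with 28 higher and 3 lower in PiZ liver, and 82 had an unadjusted p under 0.05. Nor did the CPM of the 5 PiZ and 5 WT mice separate without overlap for any of the 5 members, which was so for 8.93% of all tested miRNAs. The median log2 fold change (PiZ over WT) of the tested members was 0.20, against 0.069 for all tested miRNAs. That median is the value of miR-29c-5p alone, from 3 to 26 reads a mouse. miR-29a-3p and miR-29b-3p, the most abundant members, stood at -0.14 and 0.060, and miR-29c-3p and miR-29a-5p at 0.51 and 0.62.

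miR-29a-3p, the most abundant member and a repressor of fibrillar collagens, was present at 3854, 3293, 3187, 3263 and 4522 CPM in PiZ mice 1 to 5, against 5446, 3437, 5291, 3337 and 3424 CPM in WT mice 1 to 5. WT mice 1 and 3 were highest, PiZ mouse 5 came next, and the groups overlapped, although 3 PiZ mice lay below all WT mice. The PiZ mean was 3624 ± 568.1 CPM and the WT mean 4187 ± 1081 CPM (SD, n = 5 each). The difference was smaller than the spread between mice (log2 fold change -0.14, SE 0.21, 95% interval -0.61 to 0.32, adjusted p = 0.743, edgeR). Without WT mice 1 and 3 the log2 fold change was 0.043 (adjusted p = 0.863, edgeR). It was -0.037 with PiZ mouse 5 left out as well (adjusted p = 0.818, edgeR), so its sign depended on the mice used.

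miR-29b-3p, the member with the longer 3′ end, had the smallest spread between mice relative to its mean of the 3 3p strands. Its level was 2022, 2038, 1728, 1668 and 2054 CPM in PiZ mice, against 2088, 1906, 2062, 1659 and 1700.1 CPM in WT mice. PiZ values lay within the WT range in 5 of 5 mice. The PiZ mean was 1902 ± 188 CPM and the WT mean 1883 ± 199 CPM (SD, n = 5 each). The log2 fold change was 0.060 (SE 0.15, 95% interval -0.28 to 0.40, adjusted p = 0.857, edgeR). The sign of this value turned under upper quartile scaling (-0.096), with library totals taken without miR-22-3p (-0.049) and with no filter on low counts (-0.035), so no direction is given. Without WT mice 1 and 3 it was 0.057 (adjusted p = 0.778, edgeR).

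miR-29c-3p, which shares the seed and all but 1 base with miR-29a-3p, had the widest such spread. It stood at 1179, 1119, 958, 828 and 708 CPM in PiZ mice, against 436, 956, 469, 758 and 756 CPM in WT mice. In PiZ mice 1 to 3 it lay above all WT mice, PiZ mouse 5 lay below 3 WT mice, and WT mice 1 and 3 were lowest. A PiZ mean of 958 ± 196 CPM and a WT mean of 675 ± 219 CPM (SD, n = 5 each) gave a log2 fold change of 0.51 (SE 0.26, 95% interval -0.060 to 1.08), with an unadjusted p of 0.0744 and an adjusted p = 0.233 in edgeR. Without WT mice 1 and 3 it was 0.14 (adjusted p = 0.567, edgeR). Single mice also moved it, to 0.18 without PiZ mouse 1 and 0.24 without PiZ mouse 2, and it ran up to 0.64 without PiZ mouse 5. There the unadjusted p was 0.0290 and the adjusted p 0.109 (edgeR). Without WT mouse 2 the unadjusted p was 0.0381 and the adjusted p 0.148 (edgeR). With library totals and no further scaling they were 0.0427 and 0.164 (edgeR).

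The 5p strands were counted with far fewer reads. miR-29a-5p had 30, 41, 110, 135 and 54 reads in PiZ mice, against 5, 18, 4, 83 and 73 reads in WT mice. As CPM this was 12.3, 16.2, 11.0, 12.0 and 6.46 in PiZ mice and 3.57, 9.39, 2.24, 12.6 and 7.92 in WT mice. WT mice 1 and 3 were lowest and only PiZ mouse 2 lay above all WT mice (log2 fold change 0.62, SE 0.43, 95% interval -0.31 to 1.56, adjusted p = 0.411, edgeR). Without those WT mice the log2 fold change of miR-29a-5p was 0.11 (adjusted p = 0.861, edgeR). It was 0.20 without PiZ mouse 2, 0.33 without PiZ mouse 1, 0.37 without WT mouse 3 and 0.94 without WT mouse 4. The longer list alone gave 1.47 (unadjusted p 0.0407, adjusted p = 0.226, edgeR) and the shorter list alone -0.073. miR-29c-5p had a PiZ mean of 2.22 ± 0.696 CPM and a WT mean of 2.35 ± 1.17 CPM (SD, n = 5 each) from 3 to 26 reads a mouse, with a log2 fold change of 0.20 (SE 0.39, adjusted p = 0.803, edgeR), and of 0.17 without WT mice 1 and 3. miR-29b-1-5p had 5 reads over the PiZ mice and 2 over the WT mice. miR-29b-2-5p had 4 reads over the PiZ mice and 0 over the WT mice, and neither strand passed the filter on low counts.

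**Figure D2:**
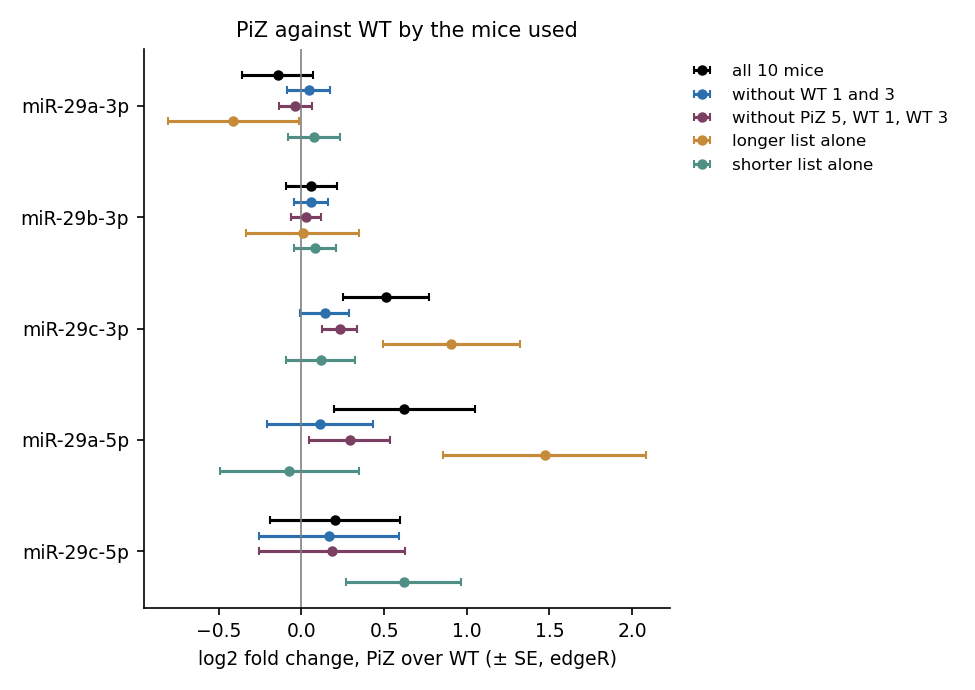
Log2 fold change of PiZ over WT (points, bars ± SE, edgeR) for the 5 tested members, with all 10 mice and with 4 smaller sets of mice. miR-29c-3p stands at 0.51 with all mice and at 0.14 without WT mice 1 and 3, and miR-29b-3p stays within 0.1 of 0 in each set. miR-29c-5p was not tested in the longer list alone.

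The counts of miR-29a-3p and miR-29c-3p were not always whole. Both ended in 0.5 of a read in the same 8 of the 20 runs, and miR-29b-3p had a whole count in every run. Reads can thus have been divided between them, and how many is not known from the files. A fit with the reads of miR-29a-3p and miR-29c-3p merged, added after seeing the data, gave a log2 fold change of -0.13 for the merged pair (SE 0.17, adjusted p = 0.689, edgeR).

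The total output of the shared seed was next compared, as the share of all miRNA reads held by the 3 3p strands, which does not depend on how those reads were divided. The family held 0.709, 0.653, 0.637, 0.602 and 0.623% of reads in PiZ mice, against 0.852, 0.591, 0.916, 0.539 and 0.541% in WT mice. WT mice 1 and 3 were the highest of the 10 and WT mice 4 and 5 the lowest, so the PiZ range lay inside the WT range. The mean share was 0.645 ± 0.0403% in PiZ mice and 0.688 ± 0.182% in WT mice (SD, n = 5 each; difference -0.0435 percentage points, exact two-sided permutation p = 0.571). Counting error was small beside this spread, with 95% exact binomial intervals of at most 0.0158 points to either side.

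The difference of this share took the other sign without WT mice 1 and 3. The remaining WT mice averaged 0.557 ± 0.0296% (SD, n = 3), a difference of 0.0873 points. In this set 5 of 5 PiZ mice lay above all 3 WT mice (exact permutation p = 0.0357, the smallest possible there). The mice left out hold the highest values of this share, so this p is not read as a test of genotype. Within the shorter list, 3 of 3 PiZ mice lay above both WT mice (difference 0.0803 points, exact permutation p = 0.2, the smallest possible there). Within the longer list, which holds WT mice 1 and 3, the difference was -0.106 points (exact permutation p = 0.6). In those WT mice the share of miR-22-3p in the reads was also highest. With miR-22-3p left out of the total the family held 1.12% in PiZ and 1.37% in WT liver over all 10 mice (difference -0.242 points, exact permutation p = 0.444).

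The make-up of the family varied between mice of one genotype. miR-29a-3p made up 54.6, 51.1, 54.3, 56.7 and 62.1% of the 3p reads of the family in PiZ mice, against 68.3, 54.6, 67.6, 57.999 and 58.2% in WT mice. miR-29c-3p made up 16.7, 17.3, 16.3, 14.4 and 9.72% in PiZ mice, against 5.47, 15.2, 5.99, 13.2 and 12.9% in WT mice. WT mice 1 and 3 and PiZ mouse 5 had the highest miR-29a-3p and the lowest miR-29c-3p shares of the 10 mice. miR-29b-3p held 28.2 to 31.6% in PiZ mice and 26.2 to 30.3% in WT mice. Between the runs of a library the miR-29a-3p share differed by at most 0.926 points and the miR-29c-3p share by at most 0.472, far less than between mice. For the miR-29b-3p share the largest difference between runs was 1.01 points, in PiZ mouse 2. That is smaller than its ranges over mice given above, but a larger part of them than for the other shares.

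By genotype, miR-29a-3p made up 55.7 ± 4.08% in PiZ mice and 61.4 ± 6.23% in WT mice (SD, n = 5 each; difference -5.61 points, exact permutation p = 0.159). miR-29c-3p made up 14.9 ± 3.10% in PiZ mice and 10.5 ± 4.48% in WT mice (SD, n = 5 each; difference 4.36 points, exact permutation p = 0.127). miR-29b-3p made up 29.4 ± 1.33% in PiZ mice and 28.1 ± 1.77% in WT mice (SD, n = 5 each; difference 1.25 points, exact permutation p = 0.230). After adjustment over the 3 shares each p was 0.230 (exact permutation tests), so none of these differences passed. Without WT mice 1 and 3 the differences were -1.19 points for miR-29a-3p, 1.16 for miR-29c-3p and 0.032 for miR-29b-3p (exact permutation p 0.571 to 1). Without PiZ mouse 5 they were -7.20 points for miR-29a-3p and 5.65 for miR-29c-3p. The exact permutation p was then 0.0476 and 0.0317, and 0.0714 for each after adjustment over the 3 shares. Without PiZ mouse 5 and WT mice 1 and 3 the differences were -2.78 and 2.45 points. Within the longer list the differences were -10.7 points for miR-29a-3p and 8.15 for miR-29c-3p (exact permutation p 0.4 and 0.2, with 0.2 the smallest possible within a list). Within the shorter list they were -0.44 and 0.46 points (exact permutation p 1 and 0.8).

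**Figure D3:**
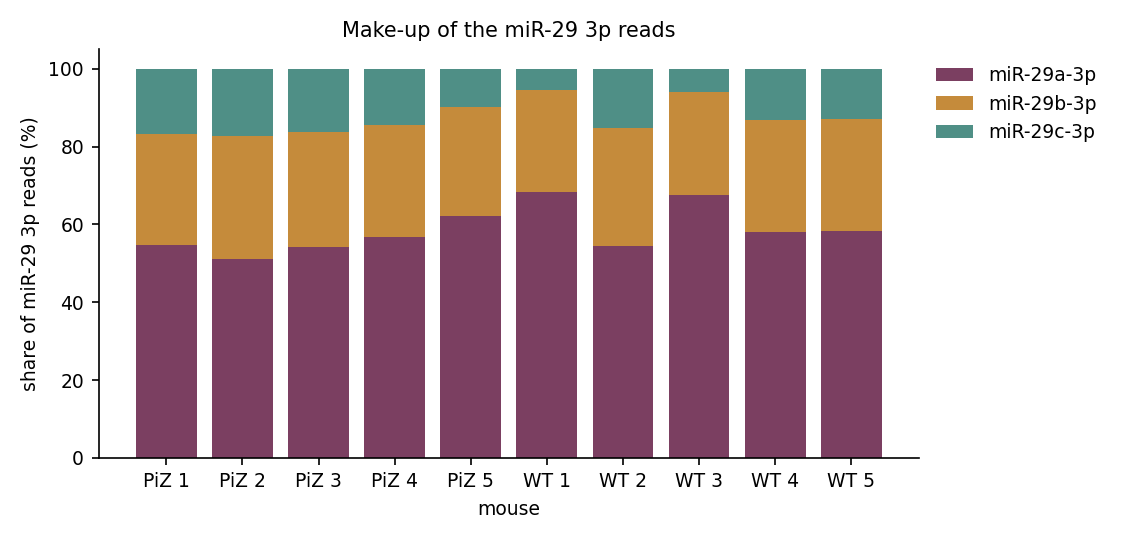
Share of miR-29a-3p, miR-29b-3p and miR-29c-3p in the 3p reads of the family (percent, stacked to 100) in each mouse, PiZ on the left. The miR-29c-3p part is 9.72% in PiZ mouse 5, 5.47% in WT mouse 1 and 5.99% in WT mouse 3, and at least 12.9% in the other 7 mice.

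As a ratio, miR-29a-3p exceeded miR-29c-3p 3.27, 2.94, 3.33, 3.94 and 6.39 times in PiZ mice, against 12.5, 3.59, 11.3, 4.41 and 4.53 times in WT mice. PiZ mice 1 to 3 had lower ratios than any WT mouse, and PiZ mouse 5 had a higher one than 3 WT mice. Over miR-29b-3p, miR-29a-3p stood 1.62 to 2.20 times higher in PiZ mice and 1.80 to 2.61 times higher in WT mice. The 3p strands of the Mir29a and Mir29c hairpins thus varied in ratio far more than those of miR-29a and miR-29b.

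Over the 10 mice, the log2 CPM of miR-29a-3p and miR-29c-3p ran in opposite directions (Pearson r = -0.81, permutation p = 0.0128, adjusted over 3 pairs 0.0193; Spearman rho = -0.62, permutation p = 0.0590, adjusted 0.0885). Leaving out the 2 mice farthest from the median of miR-29a-3p, WT mice 1 and 3, gave r = -0.24, so the size of this r rested on those mice. miR-29a-3p and miR-29b-3p ran in the same direction (r = 0.72, permutation p = 0.0042, adjusted 0.0126; rho = 0.76, permutation p = 0.0153, adjusted 0.0460), and r was 0.64 without the same 2 mice. With DESeq2 size factors the adjusted permutation p of rho was 0.0940, and r without these mice was 0.43. For miR-29b-3p and miR-29c-3p, r was -0.25 (permutation p = 0.490; rho = -0.38, permutation p = 0.280, with the same values after adjustment), and -0.31 without the 2 mice farthest from the median of miR-29b-3p, PiZ mouse 4 and WT mouse 4. It was 0.47, the other sign, without WT mice 1 and 3. The levels of a pair share a library and its scaling. PiZ and WT mice were pooled, so differences between the genotypes enter r as well.

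These relations were also taken with the levels centred within each list of miRNAs and the mice permuted within the lists, an alternative added after seeing the data. For miR-29a-3p and miR-29c-3p this gave r = -0.87 (exact permutation p = 0.0221, adjusted 0.0425, with rho = -0.92, adjusted 0.0242). Without PiZ mouse 5 and WT mouse 1, then farthest from the median, r was -0.88, with WT mouse 3 still among the mice. For miR-29a-3p and miR-29b-3p r was 0.67 (exact permutation p = 0.0283, adjusted 0.0425; rho = 0.54, adjusted 0.0890), and without PiZ mouse 5 and WT mouse 1, then farthest from the median, r was 0.37. For miR-29b-3p and miR-29c-3p r was -0.30 (exact permutation p = 0.113, adjusted 0.113). Here too PiZ and WT mice were pooled within a list, and the part of genotype in these values was not tested.

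**Figure D4:**
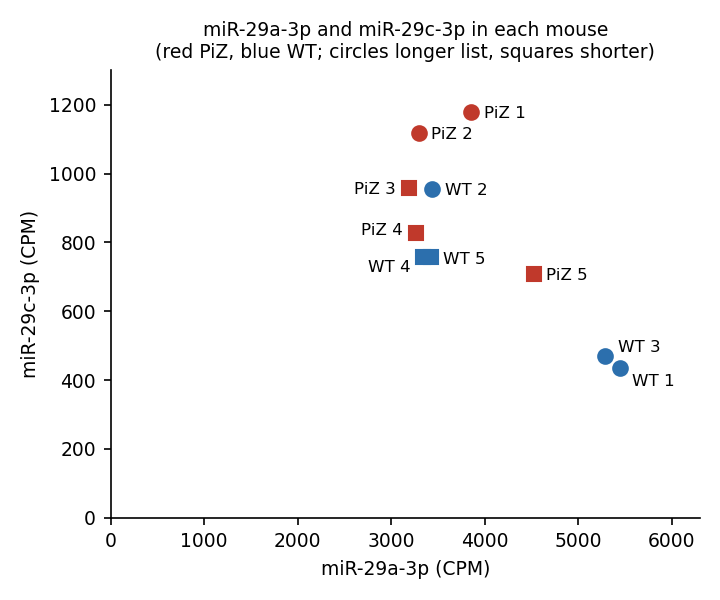
miR-29c-3p against miR-29a-3p in each mouse (CPM with TMM-scaled library sizes, linear axes from 0), PiZ in red and WT in blue, circles for the longer and squares for the shorter miRNA list. WT mice 1 and 3 sit at the lower right, at 5446 and 5291 CPM of miR-29a-3p and 436 and 469 CPM of miR-29c-3p, and PiZ mouse 5 is next to them.

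The arms of the Mir29a hairpin printed above could be compared within a library, which needs no scaling. For each 1000 miR-29a-3p reads there were 3.19, 4.90, 3.45, 3.67 and 1.43 miR-29a-5p reads in PiZ mice, against 0.656, 2.73, 0.423, 3.77 and 2.31 in WT mice. WT mice 3 and 1 and PiZ mouse 5 were the lowest again, and the groups overlapped. The 95% exact interval was 0.213 to 1.53 for WT mouse 1 and 0.115 to 1.08 for WT mouse 3, from 5 and 4 reads of miR-29a-5p. On a log2 scale the 5p over 3p ratio, with 0.5 read added to each, was on average -8.32 ± 0.67 in PiZ mice and -9.35 ± 1.31 in WT mice (SD, n = 5 each), a difference of 1.02 (exact permutation p = 0.175). It was 0.67 with 5 reads added to each arm (exact permutation p = 0.214) and 0.60 without WT mouse 3. The difference rose to 1.30 without PiZ mouse 5 (exact permutation p = 0.0635) and 1.35 without WT mouse 4 (exact permutation p = 0.0952). Without WT mice 1 and 3 the difference was 0.098 (exact permutation p = 0.786). It was 2.02 within the longer list and -0.17 within the shorter one (exact permutation p 0.2 and 0.8). The smallest p possible within a list is 0.2, and in the longer list both PiZ mice lay above all WT mice. Arms of the Mir29c hairpin were not compared, since miR-29c-5p averaged 11.4 reads a mouse, under the minimum of 20.

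**Figure D5:**
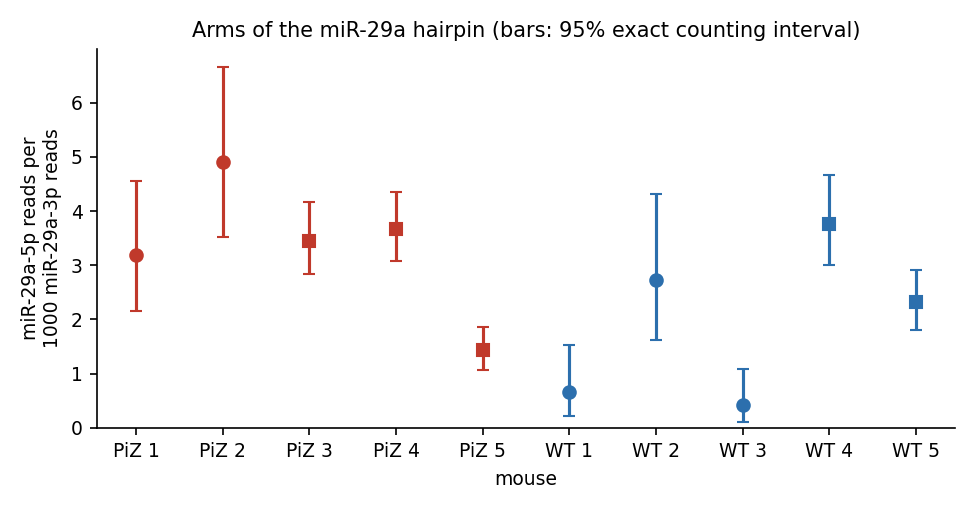
miR-29a-5p reads per 1000 miR-29a-3p reads in each mouse, PiZ in red on the left and WT in blue, with 95% exact binomial intervals as bars, circles for the longer and squares for the shorter miRNA list. Counting error alone is shown, and PiZ mouse 5 (1.43) and WT mice 1 and 3 (0.656 and 0.423) are the 3 lowest.

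Whether the members moved alike in both sets of files was tested as the difference of the genotype effect between the longer and the shorter list. None of the 5 members differed by this test, and of 372 miRNAs tested 0 (0%) were called in edgeR, with 16 at an unadjusted p under 0.05; DESeq2 also called 0, with 15 unadjusted. The differences of the log2 fold change, longer minus shorter list, were -0.46 (SE 0.39) for miR-29a-3p, -0.049 (SE 0.30) for miR-29b-3p and 0.80 (SE 0.50) for miR-29c-3p. For miR-29a-5p the value was 1.57 (SE 0.79) and for miR-29c-5p -1.02 (SE 0.80), with adjusted p from 0.872 to 0.969 over the 5 members in edgeR. Without WT mouse 2, which leaves WT mice 1 and 3 alone for WT in the longer list, edgeR called 15 of 407 miRNAs by this test. In that fit miR-29c-3p stood at 1.31 (adjusted p = 0.0668) and miR-29a-5p at 2.47 (adjusted p = 0.0736), so neither was called.

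The miRNAs outside the family whose log2 CPM followed the summed 3p CPM most closely over the 10 mice were miR-361-5p (r = 0.92), miR-99b-5p (r = 0.91) and miR-532-5p (r = 0.88), out of 331 compared. miR-361-5p stood at 106.6 to 138 CPM in PiZ mice, against 166 and 181 CPM in WT mice 1 and 3 and 103 to 113 CPM in the other WT mice. miR-99b-5p stood at 416 to 945 CPM in PiZ mice, against 2050 and 1600.4 CPM in WT mice 1 and 3 and 442 to 1058 CPM in the other WT mice. Like the family total, all 3 were highest in WT mice 1 and 3. These values describe the mice and were given no test, since the 3 were chosen as the highest of many.

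Other miRNAs known from liver fibrosis were read beside the family, from a list in which roles are taken from rodent or human work. Of its 24 names, miR-222-3p and miR-133a-3p were below the filter and miR-199a-3p and miR-199b-3p were listed as one. Of the 21 rows tested, edgeR called 0, with 3 at an unadjusted p under 0.05, where 24.4% of all tested miRNAs had one. limma-voom called 0, against 2.08% of all tested miRNAs, and DESeq2 called 2, against 14.9%. The median log2 fold change was -0.0022 for the 10 known as promoting fibrosis and -0.084 for the 11 known as restraining it, against 0.069 for all tested miRNAs. miR-21a-5p, known to promote fibrosis through growth factor signalling in myofibroblasts, had a PiZ mean of 24742 ± 6668 CPM and a WT mean of 23650.0 ± 14717 CPM (SD, n = 5 each; log2 fold change 0.039, adjusted p = 0.971, edgeR). The pair called by DESeq2 was miR-27a-3p, with a PiZ mean of 336 ± 25.9 CPM and a WT mean of 256 ± 40.6 CPM (SD, n = 5 each; adjusted p = 0.121 in edgeR and 0.0172 in DESeq2), and miR-122-5p (log2 fold change -0.48, adjusted p = 0.119 in edgeR and 0.0238 in DESeq2). miR-200a-3p, known to restrain the transition to a mesenchymal state, had a PiZ mean of 20.3 ± 2.06 CPM and a WT mean of 12.6 ± 3.22 CPM (SD, n = 5 each; log2 fold change 0.62, adjusted p = 0.109, edgeR).

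Marker miRNAs of the cell types in liver were read in the same mice. In a bulk sample, fewer cells of a type and less of its RNA per cell cannot be told apart. All 25 markers were detected and tested, and edgeR called 0 of them, with 9 at an unadjusted p under 0.05. limma-voom called 0 and DESeq2 called 3, beside the shares of all tested miRNAs given above. The summed hepatocyte markers, led by miR-192-5p, stood at 122160 to 250410 CPM in PiZ mice, against 62757 and 86640 CPM in WT mice 1 and 3 and 213040 to 238850 CPM in the other WT mice. miR-192-5p made up most of this sum, with a mean of 137170 ± 78325 CPM in WT mice (SD, n = 5). miR-122-5p, in the same list, averaged 13010 ± 1132 CPM there, so a fall of this size was not common to all hepatocyte markers. Stellate and smooth muscle markers, led by miR-143-3p, summed to 9873 CPM in PiZ mouse 5 and 13275 to 14781 CPM in the other PiZ mice, against 5770 and 8334 CPM in WT mice 1 and 3 and 11465 to 16855 CPM in the other WT mice. PiZ mouse 5 and WT mice 1 and 3, the mice with the least miR-29c-3p in the family, also had the lowest sums of stellate and smooth muscle markers. Most of this sum was miR-143-3p, with means of 12388 CPM in PiZ and 10234 CPM in WT mice, so the order is largely that of 1 miRNA. By genotype the other members of the list differed in sign. The log2 fold change was -0.50 for miR-145a-5p and -0.044 for miR-214-3p, against 0.34 for miR-199a-3p and 0.14 for miR-199a-5p (edgeR, none called). Endothelial markers, both arms of miR-126a, summed to 23353 to 28794 CPM in PiZ mice, against 7896 and 12651 CPM in WT mice 1 and 3 and 32298 to 41271 CPM in the other WT mice. Immune markers summed to 1671 to 2632 CPM in PiZ mice, against 693 and 624 CPM in WT mice 1 and 3 and 1047 to 1890 CPM in the other WT mice. Erythroid markers summed to 310 to 1750 CPM in PiZ mice, against 1079 and 328 CPM in WT mice 1 and 3 and 259 to 1003 CPM in the other WT mice. Biliary markers summed to 178 to 315 CPM in PiZ mice, against 242 and 280.0 CPM in WT mice 1 and 3 and 189 to 235 CPM in the other WT mice. PiZ mouse 5 did not go with WT mice 1 and 3 in each list, since it had the highest hepatocyte sum of the 10 mice and the lowest biliary sum. The part of these cell types in the make-up of the family was not tested.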

How the data were processed

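The deposited files give the authors' estimated counts per mature miRNA for 20 runs. Some are not whole, as when a read is divided between miRNAs. Per the labels' protocols, the miRNeasy kit was used for extraction and the TruSeq small RNA kit for libraries. CASAVA is named in the submitters' processing notes. The sources used here give no aligner, miRBase release or rule for shared reads.

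Libraries with different animal numbers in the labels were taken as separate mice, and the 2 runs of a mouse were summed and rounded. The 880 miRNAs listed in every file were filtered with filterByExpr, scaled with TMM factors and put through edgeR 4.0.16 (quasi-likelihood test, miRNA list and genotype as terms, Benjamini-Hochberg adjustment over all tested miRNAs, threshold 0.05). The standard error is the fold change over the square root of F. Alternatives used DESeq2 1.42.0 and limma 3.58.1 in R 4.3.3. Shares and arm ratios were tested over mice with exact two-sided permutation tests (scipy 1.17.1, Python 3.11.15), and correlations on log2 CPM (prior count 2) with 100000 permutations, or exactly within the 2 lists. Intervals on shares are 95% exact binomial ones. They cover counting error only, since reads without molecular identifiers are not independent molecules. The fits were tested on simulated counts. Plots used matplotlib 3.10.9.

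Named were all family members, the 3 miRNAs most like their summed level, and members of a liver fibrosis list and of cell type marker lists. The members and lists, and the choice of mice to leave out, were made with earlier results of these data known.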

Additional observations from a re-analysis of the deposited data

How the results depend on the processing

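Between PiZ and WT, 0 members were called under every alternative run, with at most 1 at an unadjusted p under 0.05 (edgeR, DESeq2 and limma-voom). The alternatives were other scalings, filters and tests, a fit without the list term, each list or run alone, each mouse left out, and smaller sets of mice. No paired analysis was possible because the replicate numbers in the labels are technical runs, and mouse numbers name different animals. The difference in the family's share of reads took the other sign without WT mice 1 and 3 (0.0873 points), without these and PiZ mouse 5 (0.0927) and in the shorter list alone (0.0803), and ran from -0.0807 (without WT mouse 4) to 0.0135 (without WT mouse 3) with a mouse left out. In the shorter list alone the miR-29b-3p share differed by -0.0154 points, the arm balance by -0.17, and the log2 fold changes of miR-29a-3p and miR-29a-5p were 0.077 and -0.073. miR-29a-3p stood at 0.043 without WT mice 1 and 3, and at -0.037 without these and PiZ mouse 5. For miR-29b-3p the value was -0.096 under upper quartile scaling, -0.049 with totals without miR-22-3p, -0.035 unfiltered, -0.044 with miR-29a-3p and miR-29c-3p merged, and -0.16 to 0.086 with a mouse left out. Leaving out a mouse gave -0.12 to 0.28 for miR-29c-5p and -0.20 to 0.068 for the list difference of miR-29b-3p, where a mouse alone in its arm was assumed to vary like the others. Correlations without WT mice 1 and 3 were 0.64 (miR-29a-3p with miR-29b-3p), -0.24 (miR-29a-3p with miR-29c-3p) and 0.47 (miR-29b-3p with miR-29c-3p).

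Of 336 miRNAs tested, edgeR called 31. The number tested changed with the setting, and the count was 18 of 348 with totals without miR-22-3p and 83 of 852 unfiltered. It was 13 of 216 at a mean of 10 CPM or more, 17 of 300 without the list term and 18 of 282 in run 2 alone. With a mouse left out it ran from 5 of 311 (without WT mouse 4) to 46 of 295 (without PiZ mouse 5). DESeq2 called 50 and limma-voom 7. edgeR called 0 of 395 in the shorter list alone (55 at an unadjusted p under 0.05) and 0 of 410 without WT mice 1 and 3 (104 unadjusted). Without these and PiZ mouse 5 it called 100 of 390. Upper quartile scaling moved the median log2 fold change of all tested miRNAs to -0.095, against 0.069 with TMM. The causes were not tested. The 5p strands of the miR-29b hairpins, with 0 to 2 reads a mouse, were tested only in the fit without a filter, where neither was called (adjusted p 0.900 for miR-29b-1-5p and 0.574 for miR-29b-2-5p, edgeR). miR-29c-5p was not tested in either run alone.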
